A study of Orestias ascotanensis with 42 samples.

Results

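The 9 families miR-124, miR-128, miR-132, miR-137, miR-138, miR-153, miR-212, miR-218 and miR-219 are microRNAs best known from neurons and glia. They were measured by small RNA sequencing in muscle, skin and gills of Orestias ascotanensis, a killifish of a high-altitude salt pan in Chile. The members were all names of these families, with any letter and either arm, that matched by name alone once the species prefix was removed. They came to 67 names of the 1342 in the deposited tables. No measured value entered that name rule, but the families were chosen with earlier results of these data known. Where a name had several entries, the entry with the most reads in a library was used.

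The same 14 adult wild fish gave all 3 tissues, so there were 42 libraries. The 6 groups of 7 libraries each were muscle, skin and gills of fish from the summer collection, and muscle, skin and gills of fish from the winter collection. All fish were netted at the same place, in a July and a January, and no animals were pooled. The seasons are different fish, and season cannot be told apart from collection date. The season was read from the treatment label, because every title says summer. The sign of each seasonal difference depends on that label.

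MicroRNAs are short RNAs cut from hairpin precursors. They guide Argonaute proteins to matching messages and lower their output, and they recognise targets chiefly through the seed near their 5′ end. miR-124 is the classic neuronal microRNA and holds down non-neuronal messages. miR-132 and miR-212 are cut from one shared transcript in mammals, whose production follows neuronal activity through the factor CREB. miR-137, miR-138 and miR-153 act in neuronal maturation, in the size of dendritic spines in rat neurons and at synapses. miR-128 is abundant in brain and is also made in mammalian skeletal muscle. miR-218 is enriched in motor neurons and lies in introns of Slit genes. miR-219 drives oligodendrocyte maturation in mouse and zebrafish. Muscle, skin and gills hold peripheral nerves, and skin and gills also hold sensory and secretory cells, so none of the 3 tissues is free of neural cells.

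Of the 67 names, 60 had at least 1 read and 7 had none in any library. The 7 were miR-128-4-5p, miR-128-5p, miR-153a-2-5p, miR-153d, miR-218b-5p, miR-219-3-3p and miR-219-3p. A count of 0 allows up to 3 reads per library, for counting error only. Many names hold the same reads, because names of several fish species were counted side by side. Names whose counts matched within 5% in every library with at least 20 reads were grouped, which left 36 distinct read profiles for the 60 names. The member names made up a small part of all reads, at 0.0386% on average in muscle, 0.0580% in skin and 0.116% in gills, with 1 name taken per read profile. Between tissues 45 names (23 profiles) had enough reads for a test, and the other 15 with reads never exceeded 25 reads in a library. The levels are therefore low for most families, and a lead name is described for each family, the name with the highest mean level.

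Summed counts per library ran from 18314928 to 57710548 in muscle, from 11091382 to 36093916 in skin and from 598084 to 27067509 in gills. Fish 4 of summer had the shallowest gill library, and fish 2 of winter the next, at 1196380. In gills the median summed count was 20423114 in summer and 4947715 in winter. Levels are given as scaled CPM, a CPM value (reads of a name relative to the summed count of its library) after TMM scaling, which sets the bulk of the names level between libraries. The choice of scaling matters here. miR-10 names, which are no members, took a median of 89.6% of reads in muscle, 61.7% in skin and 20.1% in gills. With scaling by totals alone, the median log2 difference of all names moved by -3.38 for muscle minus gills, by -2.29 for muscle minus skin and by -1.08 for skin minus gills. When miR-10 names were left out before the totals were taken, these shifts were 0.01, -0.12 and 0.12. Differences below are therefore given relative to the bulk of the names, and a direction that turned with totals alone is named beside its value.

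With TMM scaling the labelled tissues carried their own marker microRNAs. The 14 skeletal muscle names (miR-133 letters, miR-206 and miR-499) summed to a median of 19180 scaled CPM in muscle, 2575 in skin and 163.5 in gills. The 26 epithelial names (miR-141, miR-200, miR-203, miR-205 and miR-429) summed to 329 scaled CPM in muscle, 7911 in skin and 11440 in gills. In the tests described below, totals alone put 10 of 13 skeletal muscle names higher and 1 lower in muscle than in gills. Against skin 4 were higher and 4 lower, so that part of the check depended on the scaling. Of all names, totals alone put 9.14% higher and 84.2% lower in muscle than in gills, and 8.19% and 82.5% than in skin. All 21 tested epithelial names were lower in muscle than in either surface under both scalings.

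Most of these neural microRNAs were higher in muscle than in either body surface once libraries were scaled by TMM. By quasi-likelihood F test in edgeR, with Benjamini-Hochberg adjusted p under 0.05, 41 of the 45 members (19 profiles) were higher in muscle than in gills and 2 were lower, against 37.5% and 39% of all 525 names tested. For muscle minus skin, 41 members were higher and 3 were lower, against 32.4% and 34.7% of all names. For skin minus gills, 14 members (5 profiles) were higher, 8 (6 profiles) were lower and 23 were not called, against 25.7% and 28.8% of all names. The 14 include 8 miR-219 names, which share 1 profile, so by profiles neither direction prevailed. The median log2 difference over the 45 member names was 3.06 for muscle minus gills, 2.97 for muscle minus skin and 0.41 for skin minus gills. That of all names was -0.10, -0.11 and -0.00. These medians count names that share reads separately, so families with many names weigh more. The 8 miR-219 names, for instance, lay at 7.40 to 7.46 for muscle minus gills.

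With totals alone the split was different. For muscle minus gills 8 members were higher and 22 lower, against 9.14% and 84.2% of all names. For muscle minus skin 23 members were higher and 13 lower, against 8.19% and 82.5% of all names. For skin minus gills 9 were higher and 18 lower, against 13.7% and 69.7% of all names. The 8 names of miR-219 were the only members higher in muscle than in gills under both scalings. In bulk samples such as these, fewer cells of a type and less RNA per cell cannot be told apart.

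**Figure D1:**
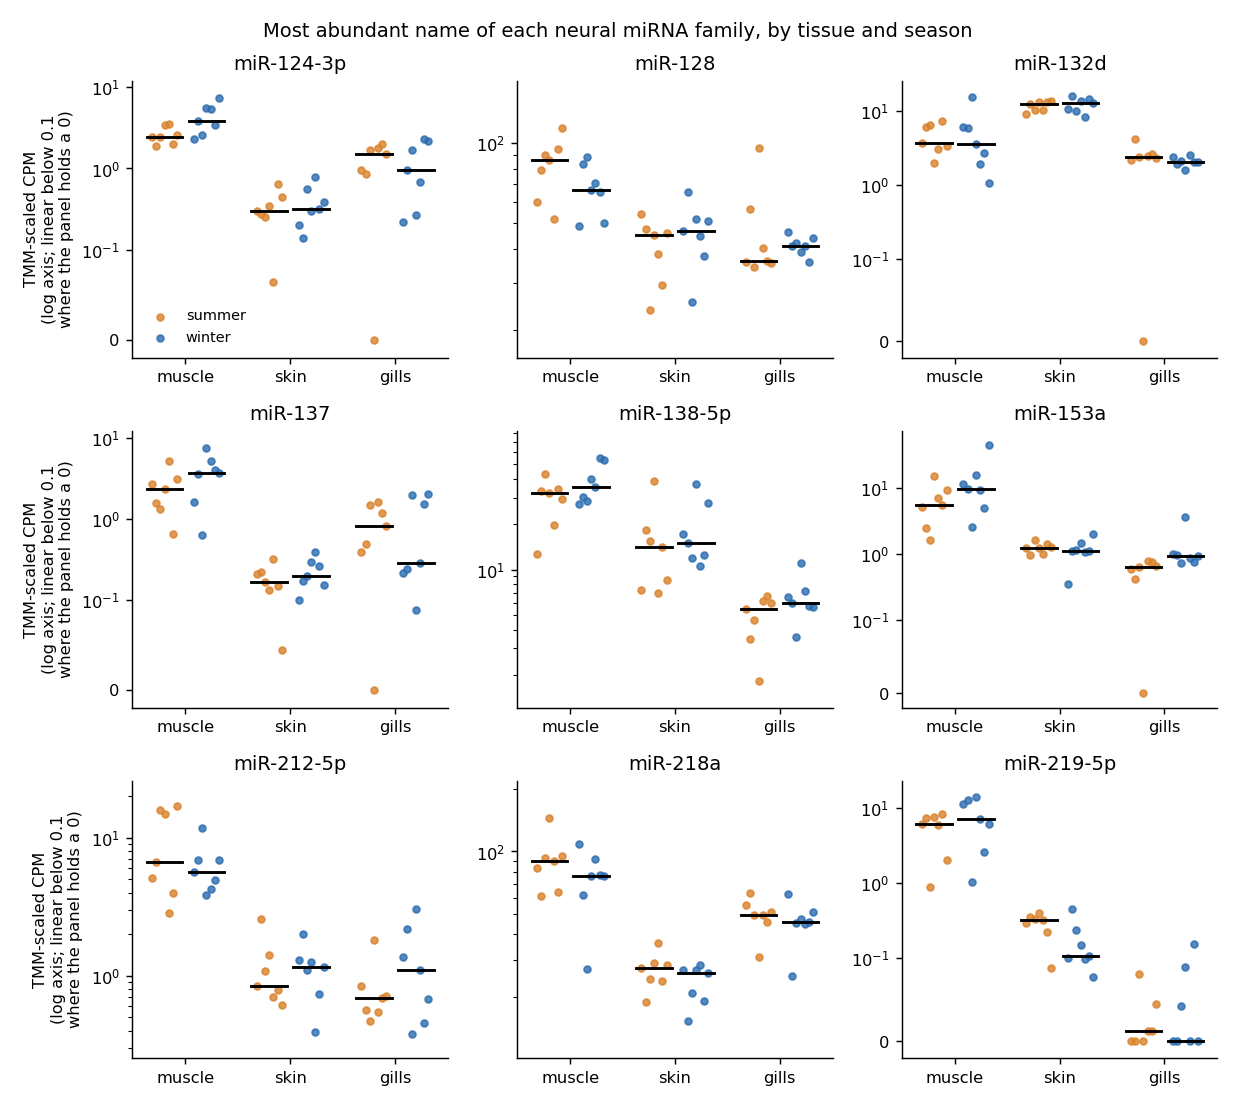
Level of the lead name of each family in every library, in TMM-scaled CPM on a log axis (linear below 0.1 in panels that hold a 0), for muscle, skin and gills, with summer in orange and winter in blue; each point is 1 fish and black lines are medians of 7. miR-219-5p falls off across the 3 tissues, miR-132d is high in skin, and summer and winter points overlap in every panel.

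miR-219, the oligodendrocyte microRNA, showed the widest gap between muscle and gills among the leads. The 8 names with reads share 1 read profile, all of the 5p arm or with no arm in the name, and the 3p names had no read. miR-219-5p had 932 reads over the 14 muscle libraries, 91 over the 14 skin libraries and 15 over the 14 gill libraries. Every muscle library held at least 6 reads and the highest 230, skin libraries held 1 to 21, and gill libraries 0 to 5 with 7 of 14 at 0. On the scaled CPM scale muscle ran from 0.905 to 14.4 (median 6.74), skin from 0.0771 to 0.449 (median 0.231) and gills from 0 to 0.153 (median 0.00606). All muscle libraries lay above all skin libraries, while skin and gills overlapped. The log2 difference was 7.40 ± 0.49 (SE, adjusted p = 6.69e-18, edgeR) for muscle minus gills, 4.80 ± 0.40 (adjusted p = 2.2e-14) for muscle minus skin and 2.60 ± 0.49 (adjusted p = 1.5e-05) for skin minus gills. With totals alone these were 4.13, 2.48 and 1.65, in the same direction and still called. The differences against gills rest on few gill reads, so their size is less certain than their direction. In unscaled CPM, muscle was still above gills in 13 of 14 fish and above skin in 12 of 14.

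miR-124, the neuron-enriched microRNA, was lowest in skin. miR-124-3p ranged from 1.88 to 7.48 scaled CPM in muscle (median 3.04), from 0.0637 to 0.789 in skin (median 0.307) and from 0 to 2.29 in gills (median 1.23). Muscle and skin did not overlap, and gills overlapped both. The read numbers were small, with medians of 28 in muscle, 7.5 in skin and 28 in gills. The gill library at 0 was the shallowest of the study. miR-124-3p was higher in muscle than in skin by 3.26 ± 0.32 on the log2 scale (SE, adjusted p = 2.36e-12, edgeR), and skin was below gills, at -1.86 ± 0.31 (adjusted p = 1.41e-06). Both held with totals alone, at 1.10 and -3.04. For muscle minus gills the difference was 1.40 ± 0.29 (adjusted p = 4.03e-05), but with totals alone it turned to -1.93. The name miR-124b went the other way, lower in muscle than in gills at -1.97 and than in skin at -1.38, from counts of 0 to 4 reads in muscle.

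miR-137, which acts in neuronal maturation and also restrains the pigment cell factor MITF in human melanoma cells, followed the same tissue order. Scaled CPM ran from 0.646 to 7.69 in muscle (median 2.94), from 0.0440 to 0.395 in skin (median 0.185) and from 0 to 2.03 in gills (median 0.662). Again muscle and skin did not overlap. The log2 difference was 3.97 ± 0.40 for muscle minus skin (SE, adjusted p = 7.59e-12, edgeR) and -2.29 ± 0.39 for skin minus gills (adjusted p = 2.49e-06). For muscle minus gills it was 1.68 ± 0.36 (adjusted p = 4.94e-05), which turned to -1.66 with totals alone. In gills the name mostly followed the variant miR-137a, and in muscle and skin the variant miR-137b, because the entry with the most reads was used. miR-137a was the member with the largest difference between skin and gills, lower in skin at -4.99 on the log2 scale (adjusted p = 9e-10). It had medians of 0.5 reads in muscle, 0 in skin and 17 in gills. miR-137b was higher in muscle than in gills, at 3.51, and than in skin, at 3.97, and its skin minus gills difference of -0.45 was not called. Its muscle minus gills call was lost with totals alone, while its muscle minus skin call held.

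miR-132 and miR-212, activity-linked in neurons, split between the letter variants. miR-132d, which has no arm in its name, was the highest member of its family in skin. It ranged from 1.07 to 15.1 scaled CPM in muscle (median 3.60), from 8.29 to 15.7 in skin (median 12.4) and from 0 to 4.19 in gills (median 2.20). Every skin library lay above every gill library. Skin was above gills by 2.39 ± 0.27 on the log2 scale (SE, adjusted p = 2.13e-10, edgeR), and muscle was below skin, at -1.31 ± 0.26 (adjusted p = 2.2e-05). Totals alone gave 1.32 and -3.78. The muscle minus gills difference of 1.07 ± 0.26 turned to -2.46 with totals alone. The variant miR-132b, which shares its reads with miR-132-5p, was highest in muscle in place of skin, with medians of 5.02 scaled CPM in muscle, 0.632 in skin and 0.352 in gills. It was higher in muscle than in skin at 3.11 and than in gills at 3.51, and skin minus gills was not called, at 0.41. The muscle minus gills call was lost with totals alone, while the muscle minus skin call held.

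miR-212-5p ranged from 2.82 to 17.01 scaled CPM in muscle (median 6.17), from 0.395 to 2.58 in skin (median 1.09) and from 0.382 to 3.03 in gills (median 0.701). Skin and gills overlapped almost fully, and their difference of 0.33 ± 0.31 was not called, with a 95% interval of -0.29 to 0.94. Muscle was above gills by 3.06 ± 0.32 on the log2 scale (SE, adjusted p = 1.37e-11, edgeR) and above skin by 2.74 ± 0.31 (adjusted p = 1.3e-10). With totals alone neither was called, at -0.32 and 0.35. The 3p name miR-212b-3p was higher in muscle as well, by 2.21 against gills and by 2.43 against skin, and with totals alone the values were -1.11 and 0.18.

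miR-138 and miR-153, both known from synapses, were highest in muscle with TMM scaling. miR-138-5p ranged from 12.7 to 55.2 scaled CPM in muscle (median 32.7), from 7.01 to 38.8 in skin (median 14.6) and from 1.82 to 11.04 in gills (median 5.87). Muscle lay above every gill library and overlapped skin. The log2 differences were 2.54 ± 0.25 for muscle minus gills (SE, adjusted p = 1.64e-12, edgeR), 0.97 ± 0.23 for muscle minus skin (adjusted p = 0.000358) and 1.57 ± 0.24 for skin minus gills (adjusted p = 2.69e-07). Totals alone gave -0.86, -1.34 and 0.49, so both muscle directions turned and the skin call was lost.

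miR-153a ranged from 1.66 to 46.3 scaled CPM in muscle (median 8.35), from 0.351 to 2.01 in skin (median 1.18) and from 0 to 3.74 in gills (median 0.760). Fish differed widely in muscle, and the top value came from winter fish 7 alone, with the next muscle library at 15.9. Muscle was above gills by 3.46 ± 0.35 (SE, adjusted p = 4.96e-12, edgeR) and above skin by 3.02 ± 0.34 (adjusted p = 1.17e-10), and the second call held with totals alone, at 0.95. Against gills the totals gave 0.35, not called. Skin minus gills was not called for miR-153a, at 0.44 with a 95% interval of -0.22 to 1.11, while miR-153b was called at 0.74 (adjusted p = 0.0216, lost with totals alone).

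miR-128 and miR-218 were the most abundant members. miR-128, whose reads are those of miR-128-3p, ranged from 49.0 to 113 scaled CPM in muscle (median 74.9), from 23.6 to 65.5 in skin (median 45.6) and from 34.2 to 95.3 in gills (median 40.7). The 3 tissues overlapped. Muscle was above gills by 0.76 ± 0.16 (SE, adjusted p = 4.48e-05, edgeR) and above skin by 0.78 ± 0.16 (adjusted p = 3.6e-05), both of which turned with totals alone, to -2.61 and -1.54. The skin minus gills difference was -0.02, with a 95% interval of -0.34 to 0.29, and with totals alone it was called, at -1.07. A name of the other arm, miR-128-1-5p, was not called in any tissue comparison, at -0.75 for muscle minus gills, -0.94 for muscle minus skin and 0.18 for skin minus gills, with TMM scaling. Its muscle minus skin call was close to the threshold (adjusted p = 0.0664). It was called under 6 alternatives, at -1.09 with TMM without miR-10 names, -1.02 with totals without miR-10 names, -1.11 with no filter on low counts, -1.02 and -1.03 with gill libraries left out, and -3.46 with totals alone, which also called muscle minus gills, at -4.31.

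miR-218a, the motor neuron microRNA, ranged from 27.2 to 145.2 scaled CPM in muscle (median 80.2), from 15.2 to 36.3 in skin (median 26.4) and from 25.0 to 62.9 in gills (median 48.3). It was lower in skin than in gills in 14 of 14 fish. The skin minus gills difference was -0.93 ± 0.16 (SE, adjusted p = 2.88e-06, edgeR) and -2.04 with totals alone. Muscle was above skin by 1.71 ± 0.16 (adjusted p = 1.4e-12) and above gills by 0.78 ± 0.16 (adjusted p = 3.11e-05), and totals alone turned these to -0.54 and -2.58. The variant miR-218b was higher in muscle than in skin under both scalings, at 2.77 ± 0.16 with TMM (adjusted p = 5.69e-19).

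**Figure D2:**
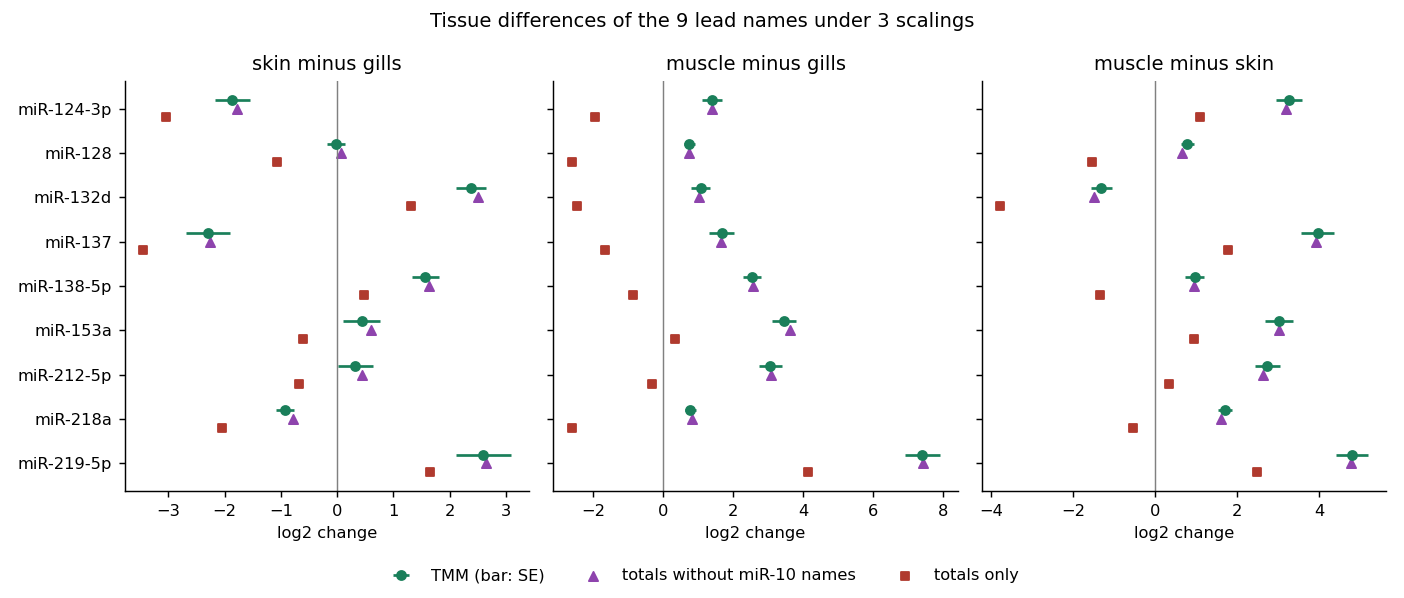
Log2 difference of the 9 lead names for skin minus gills, muscle minus gills and muscle minus skin, with TMM (green, bar 1 SE), totals without miR-10 names (purple) and totals alone (red). The first 2 scalings nearly coincide, and for muscle minus gills totals alone put 7 of the 9 leads below 0, while miR-219-5p stays at 4.13.

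Ratios within a library do not depend on scaling, so each lead was set against miR-124-3p of the same library, with 1 read added to both counts. Of 24 ratios compared between tissues, 14 passed a two-sided exact sign-flip test over the 14 fish after Benjamini-Hochberg adjustment, for which the smallest possible p is 0.000122. miR-219-5p gained on miR-124-3p in muscle. Its mean log2 ratio was 0.66 ± 1.18 in muscle, -0.51 ± 1.20 in skin and -3.77 ± 1.86 in gills (SD, 14 fish). The muscle minus gills difference of 4.43 was positive in 14 of 14 fish (exact adjusted p = 0.000366), as was the skin minus gills difference of 3.26 (exact adjusted p = 0.000366). Muscle minus skin was 1.16, higher in 11 of 14 fish (exact adjusted p = 0.0196). In 7 of 14 gill libraries this ratio rests on no read of miR-219-5p. In gills of summer fish 4 miR-124-3p had no read either, so that ratio of 0 comes from the added reads alone. The ratios of miR-132d, miR-137 and miR-153a in that library are likewise without a read.

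In skin, where miR-124-3p is scarce, other leads were high relative to it. The mean log2 ratio of miR-132d was 0.27 ± 1.41 in muscle, 5.03 ± 0.84 in skin and 0.95 ± 1.01 in gills, so that skin was above gills by 4.08 in 14 of 14 fish and muscle was below skin, at -4.77, in all 14 (exact adjusted p = 0.000366 for both). miR-138-5p was higher in skin than in gills by 3.11 and lower in muscle than in skin, at -2.14, each in 14 of 14 fish. For miR-128 these differences were 1.63 and -2.44, and for miR-218a the muscle minus skin difference was -1.57. miR-153a gained on miR-124-3p in muscle against gills, at 1.51, and in skin against gills, at 2.09. miR-212-5p gained in skin against gills, at 1.87, and miR-218a lost in muscle against gills, at -0.83 (exact adjusted p = 0.0205). With 5 reads added in place of 1, the miR-218a call was lost, at -0.59 (exact adjusted p = 0.116). The muscle minus gills ratios of miR-138-5p, at 0.97 with 1 read added, and miR-212-5p, at 1.31, were then called, at 1.10 and 1.32 (exact adjusted p = 0.0151 and 0.0377).

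miR-137 was the lead whose ratio passed in no tissue comparison. Its mean log2 ratio to miR-124-3p was -0.32 ± 0.69 in muscle, -0.65 ± 0.98 in skin and -0.55 ± 0.52 in gills. The differences were 0.23 for muscle minus gills, 0.33 for muscle minus skin and -0.10 for skin minus gills (exact adjusted p = 0.443, 0.187 and 0.736). When all entries of a name were summed in place of the highest one, skin minus gills became 0.89 (exact adjusted p = 0.0408) and muscle minus gills 1.25. This result thus depends on how the entries of a name are combined.

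**Figure D3:**
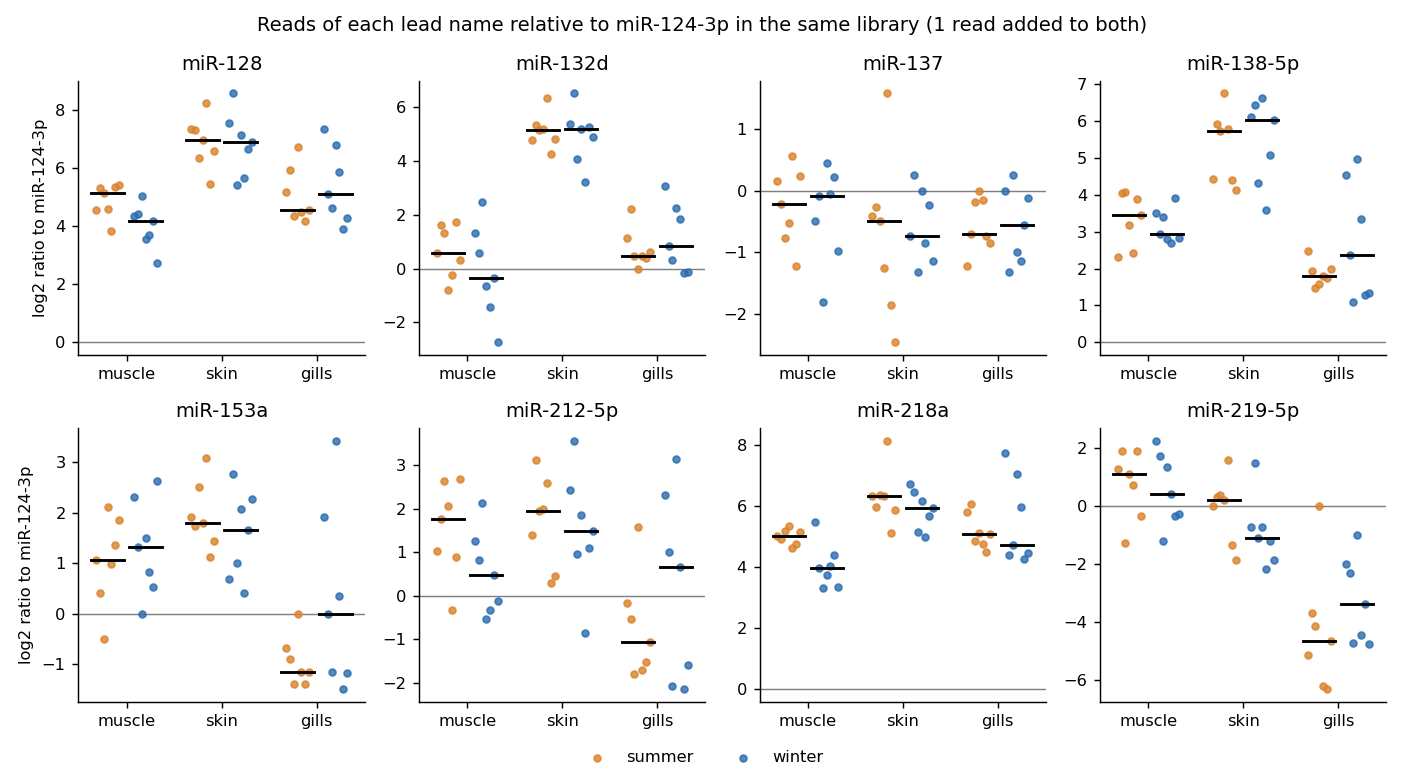
Log2 ratio of the reads of 8 lead names to those of miR-124-3p in the same library (1 read added to both), by tissue and season, with summer in orange and winter in blue; points are fish and black lines are medians of 7. The miR-132d, miR-138-5p and miR-128 ratios peak in skin, the miR-219-5p ratio is lowest in gills, and the miR-137 ratio stays near -0.32 to -0.65 on average in the 3 tissues.

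The leading 5p and 3p names could be compared in 2 families. At least 10 reads of each were held by 26 libraries for miR-128 and by 24 for miR-212. The 2 names of a pair may come from different precursors of the family, and a different use of precursors between tissues was not tested. The log2 ratio of miR-128-1-5p to miR-128-3p was -6.61 ± 1.23 in muscle, -5.02 ± 1.19 in skin and -4.86 ± 0.85 in gills (SD, 14 fish). miR-128-1-5p was thus scarcer relative to miR-128-3p in muscle than in gills, by a difference of -1.74. Against skin the difference was -1.59 (exact sign-flip test, adjusted p = 0.00769 for both over 6 tests). The ratio was lower in muscle in 12 of 14 fish in each comparison. In muscle only 4 of the 14 libraries held 10 reads of both miR-128 arms, against 12 in skin and 10 in gills, and the median muscle count of miR-128-1-5p was 6.5 reads. The muscle values thus rest mostly on low counts, and with 5 reads added both differences were smaller, at -1.19 and -1.06 (exact adjusted p = 0.0205 for both). Skin minus gills was -0.15 (exact adjusted p = 0.714). The miR-212-5p to miR-212b-3p ratio was 1.68 ± 1.00 in muscle, 1.41 ± 0.73 in skin and 0.78 ± 1.11 in gills, and none of its 3 differences passed (exact adjusted p from 0.121 to 0.476). With 5 reads added, muscle minus gills passed, at 0.90 (exact adjusted p = 0.0447). In the other families with both arms named, the names of one arm held few reads. miR-124-6-5p had 27 reads in all against 1342 of miR-124-3p, miR-153b-5p had 31 against 2534 of miR-153b-3p, miR-137-5p had 19 against 637 of miR-137-3p, and miR-132-3p had 21 against 1113 of miR-132-2-5p. Names without a stated arm are left out of these counts. Among them are miR-132d, with 5969 reads, and miR-132c, with 1639, so the arm balance of miR-132 is not known.

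Letter variants within a family, which may share reads, were compared as shares of their summed counts. No sequence was used, so how alike the variants are was not checked. Their names state no arm, so a pair may hold different arms. These pairs were chosen after their values were seen and are described without a test. miR-218b held 27.6% to 47.1% of the miR-218a and miR-218b counts in muscle (median 35.7%), 15.4% to 27.1% in skin (median 21.6%) and 9.85% to 17.6% in gills (median 13.6%). Every muscle library was above every skin library. miR-137a held a median of 1.79% of the miR-137a and miR-137b counts in muscle, 0% in skin and 78.5% in gills, with a highest share of 12.3% in muscle and 33.3% in skin. miR-132d held a median of 43.4% of the miR-132d and miR-132b counts in muscle, 94.8% in skin and 86.8% in gills, and its lowest skin library was at 92.4%. miR-153b held 27.6% of the miR-153a and miR-153b counts in muscle, 57.3% in skin and 60.8% in gills. miR-124b had no read in the median muscle library and held 33.3% of the miR-124a and miR-124b counts in skin and 35.7% in gills, on counts of at most 37 reads.

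**Figure D4:**
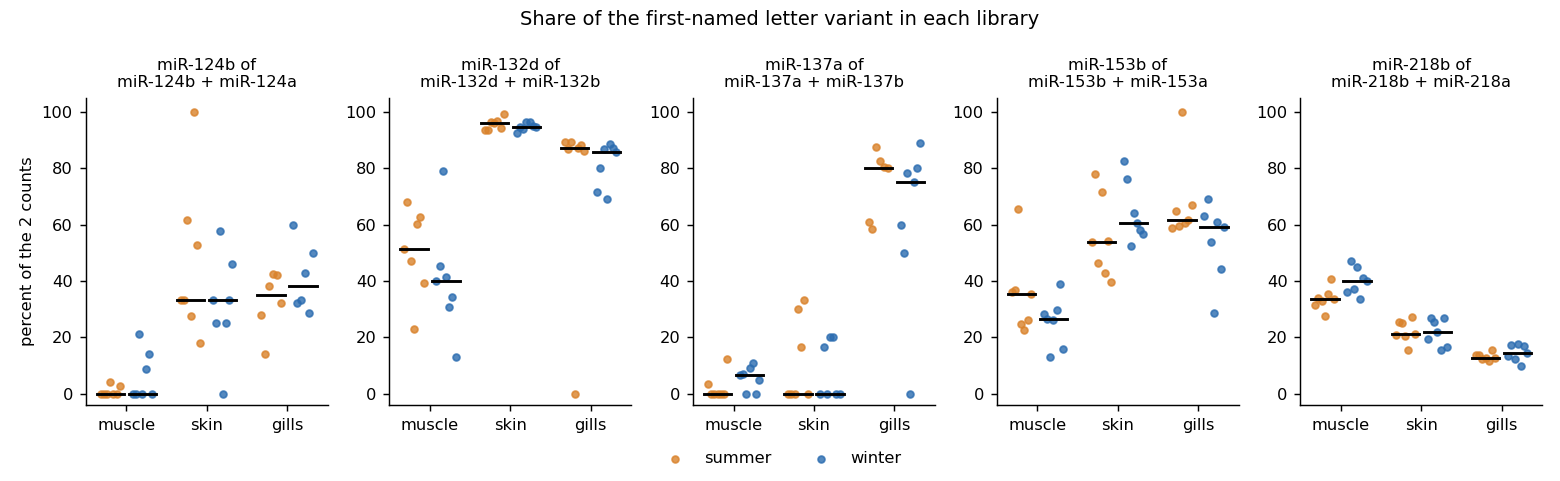
Share of the first-named letter variant in the summed counts of 2 variants of a family, in percent, by tissue, with summer in orange and winter in blue; points are libraries and black lines are medians. The miR-137a share is highest in gills (78.5%), that of miR-132d in skin (94.8%) and gills (86.8%), and the miR-218b share is highest in muscle (35.7%).

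Other microRNAs of the nervous system were also higher in muscle with TMM scaling. Some of them were called between seasons in muscle with that scaling, while no member was. A list of miR-7, miR-9, miR-129, miR-135, miR-338 and miR-383 names, chosen with earlier results of these data known, had 31 names tested. All 31 were higher in muscle than in gills and all 31 higher in muscle than in skin, against 37.5% and 32.4% of all names. In skin against gills 20 were higher and 7 lower, against 25.7% and 28.8% of all names. With totals alone 13 were higher and 14 lower in muscle than in gills, 11 and 5 in muscle than in skin, and 8 and 10 in skin than in gills. The shares of all names with totals alone were 9.14% higher and 84.2% lower, 8.19% and 82.5%, and 13.7% and 69.7% in that order. The 53 names of that list summed to 741.5 to 1658 scaled CPM in muscle, 286.7 to 591.6 in skin and 120.7 to 196.4 in gills. Within it, miR-338, which acts beside miR-219 in oligodendrocytes of mouse, had medians of 568 scaled CPM in muscle, 314 in skin and 120 in gills. The miR-9 names had medians of 482 in muscle, 18.9 in skin and 6.34 in gills. Between seasons in muscle, 36 names of the list were tested with TMM scaling. Of these, 14 (4 profiles) were higher in summer and 3 (1 profile) lower. Of the members 0 of 41 were called there, and 13.8% of all names in either direction. An unadjusted p under 0.05 in the edgeR test was reached by 21 of the 36 names and by 13 of the 41 members. Members called under other scalings are given below. The 6 tested names of the sensory cluster miR-96, miR-182 and miR-183 were all higher in muscle than in gills and than in skin, and 2 of 6 were higher in skin than in gills. Totals alone put 4 of the 6 lower and none higher in each comparison. The same shares of all names apply to these counts, and most names were lower with totals alone. The part that nerve content plays in the differences of the 9 families was not tested.

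Markers of other cell types differed between the same tissues. The 9 white blood cell names summed to medians of 66.3 scaled CPM in muscle, 350 in skin and 1385 in gills. The 6 red blood cell names summed to 188 in muscle, 111 in skin and 1272 in gills. The 5 pigment cell names (miR-204 and miR-211) summed to 297 in muscle, 2803 in skin and 151 in gills, and the 5 smooth muscle names (miR-143 and miR-145) to 1924 in muscle, 3688 in skin and 8305 in gills. All 3 tested pigment cell names (2 profiles) and all 13 tested skeletal muscle names were higher in skin than in gills, against 25.7% of all names. All 8 tested white blood cell names were lower in muscle than in gills, against 39% of all names. These counts were the same with totals alone, where 13.7% of all names were higher in skin than in gills and 84.2% lower in muscle than in gills. Their part in the results was not tested.

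Between seasons no member was called in any tissue by the same edgeR test. The count was 0 of 41 names tested in muscle, 0 of 28 in skin and 0 of 34 in gills, against 13.8%, 0.629% and 0.217% of all names tested in those tissues. At an unadjusted p under 0.05 there were 13 in muscle, 0 in skin and 2 in gills, while 115 of all 427 names tested in muscle, 50 of 477 in skin and 29 of 460 in gills reached it. The median log2 difference of the member names was -0.57 in muscle, -0.08 in skin and -0.32 in gills, and that of all names -0.17, -0.01 and -0.02. Names that share reads are counted separately in these medians too.

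In muscle the lead of miR-124 had scaled CPM of 1.88 to 3.56 in summer (median 2.46) and 2.31 to 7.48 in winter (median 3.88), and the groups overlapped. Its log2 difference was -0.86, with a 95% interval of -1.54 to -0.19 (adjusted p = 0.0835, edgeR). miR-153a had 1.66 to 15.4 in summer (median 5.65) and 2.59 to 46.3 in winter (median 9.73), for a difference of -1.35 with an interval of -2.55 to -0.14 (adjusted p = 0.137). The winter top of miR-153a was fish 7 alone, from 737 reads, and the next winter library was at 15.9, close to the summer top. A fit without that library was not run, and it also enters the miR-153a calls with other scalings below. miR-138-5p differed by -0.57, with an interval of -1.14 to 0.01. miR-219-5p had 0.905 to 8.31 scaled CPM in summer (median 6.15) and 1.03 to 14.4 in winter (median 7.26), and its difference of -0.57 had an interval of -1.69 to 0.55. These intervals are wide, and a p that misses the threshold does not show that the seasons were alike. miR-128 and miR-218a had narrower ones, from -0.28 to 0.59 and from -0.38 to 0.68.

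The muscle result depended on the scaling. Totals alone called 11 members in muscle, against 21.5% of all names, at -1.50 for miR-124-3p (adjusted p = 0.0462) and -1.23 for miR-138-5p (adjusted p = 0.039). Also called were 6 miR-132 names, namely those of the miR-132b read profile and miR-132a. Totals without miR-10 names called 13, against 34.1% of all names, adding the 2 names of the miR-153a profile. DESeq2 called 2 others, miR-212 and miR-212b-5p, against 17.3% of all names, at 1.39 (adjusted p = 0.0395), with summer above winter. The TMM value of these 2 names was 1.33 (adjusted p = 0.0849). In summer muscle the TMM factors were 0.159 to 0.347, against 0.214 to 0.678 in winter muscle. Within-library ratios carry no such scaling, and none of 24 seasonal ratios to miR-124-3p passed. The lowest was miR-218a in muscle, at 5.00 ± 0.25 in summer and 4.04 ± 0.74 in winter (SD, n = 7 each, exact permutation p = 0.00991, adjusted p = 0.238). A change shared with miR-124-3p would cancel in these ratios, and miR-124-3p was itself called with totals alone. The ratios therefore cannot show whether the members called above changed together, and the miR-132b names were in no ratio.

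In gills miR-153a had 0 to 0.800 scaled CPM in summer (median 0.631) and 0.743 to 3.74 in winter (median 0.931), with a log2 difference of -1.13 (interval -2.0004 to -0.26, adjusted p = 0.472, edgeR). miR-212-5p differed by -1.02, with an interval of -2.05 to 0.01. The summer gill libraries were the deeper ones by median, and depth cannot be told apart from season there. The other gill leads had differences between -0.47 (miR-138-5p) and 0.16 (miR-124-3p). In skin the 6 leads with enough reads differed by -0.24 (miR-138-5p) to 0.23 (miR-218a), and miR-124-3p, miR-137 and miR-219-5p had too few reads there for a test.

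**Figure D5:**
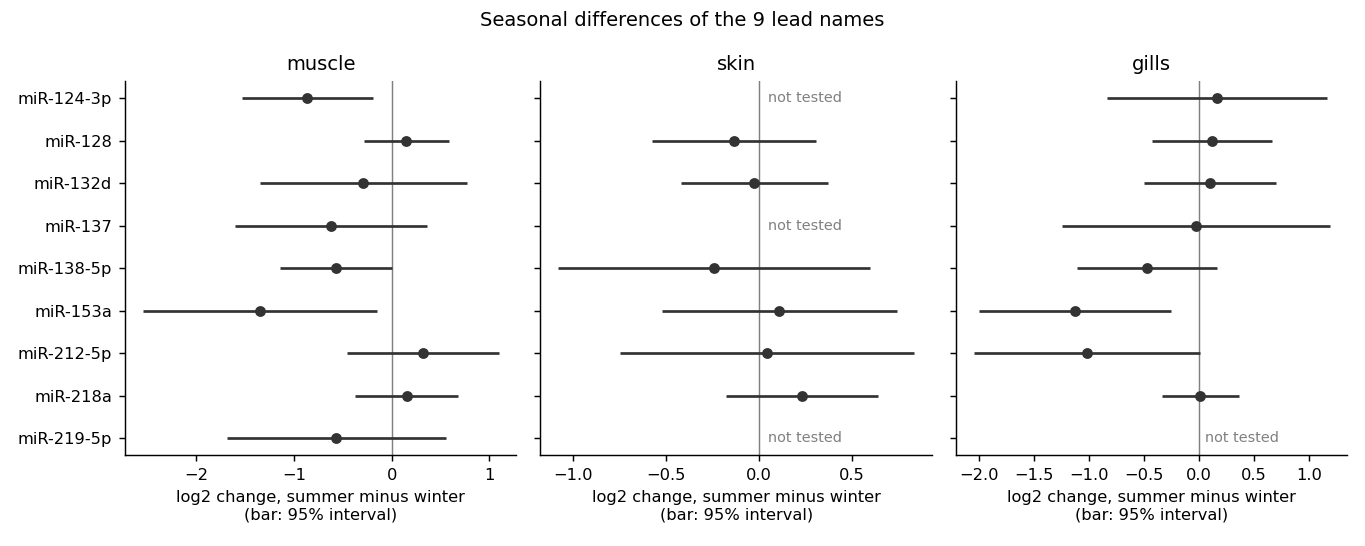
Log2 difference, summer minus winter, of the 9 lead names in muscle, skin and gills with TMM scaling, where the bar is the 95% interval of the edgeR fit and leads with too few reads are marked as not tested. The intervals of miR-124-3p and miR-153a in muscle and of miR-153a in gills lie below 0, and none of these passed the adjustment over all names.

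The difference in seasonal change between tissues was tested directly. No member was called for muscle minus gills, for muscle minus skin or for skin minus gills, against 1.9%, 2.29% and 0.762% of the 525 names tested. At an unadjusted p under 0.05 there were 8, 2 and 0 of the 45 members, against 67, 63 and 27 of all 525 names. DESeq2 called 0 members in each, with no share of all names to set beside it. With totals alone 3 members were called for muscle minus skin, against 17.7% of all names. They were miR-153a and miR-153b-3p, at -2.56 (adjusted p = 0.0335), and miR-218b, at -1.44 (adjusted p = 0.0355). A seasonal change in muscle that differs from that of the body surfaces was thus not detected for these families with TMM scaling.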

How the data were processed

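Small RNA was size-selected on gels, made into TruSeq Small RNA libraries and sequenced on a NextSeq, with read 1 alone used, per the labels' protocols. Each library has 1 deposited table of whole-number read counts per mature miRNA and precursor, not normalized, per the file headers. Its CPM values, scaled to the summed counts, are also deposited and were not used in tests. Not given in the sources used here are the aligner, the reference release and any filter. No miRNA sequence was used here. Reads matching several names count for each. Tables held 3528 entries, and 3599 in gills of winter fish 1.

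For each name without its species prefix the entry with the most reads in a library was used. edgeR 4.0.16 in R 4.3.3 (TMM, filterByExpr with a minimum count of 10 and a minimum total of 15, quasi-likelihood test) was run on the whole table, with Benjamini-Hochberg adjustment over all names and a threshold of 0.05. Tissue contrasts used all 42 libraries and were averaged over seasons, and seasonal fits used the 14 libraries of 1 tissue. Intervals are 95% and SE is the log2 change over the root of F. The fits were tested on simulated counts. Ratios were tested exactly with Python 3.11.15 and numpy 2.4.6. Alternatives were other scalings, DESeq2 1.42.0, other filters, left-out libraries, summed entries, a pseudocount of 5 reads and replicate blocks.

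Named are the lead of each family, its most abundant name of the other arm and the members with the largest called changes. Letter variants and the 2 added alternatives (a library with a longer table, and totals without miR-10 names) were chosen after their values were seen. The members and lists were chosen with earlier results of these data known. No 2 libraries of a group were identical among 126 pairs, and the design text calls every library a separate biological sample, so p-values measure the spread between fish. Tissues are paired by fish by design, but the main edgeR fit between tissues did not use that pairing. Deviations of the tissues of 1 fish from their group means correlated with a median of 0.119 for muscle and skin, 0.104 for muscle and gills and 0.112 for skin and gills. A batch label, 1 to 7 in both seasons, equals the number of the individual. Same-numbered summer and winter libraries correlated with a median of 0.11 in muscle, 0.734 in skin and 0.674 in gills. No label says what a batch shares, and the main seasonal tests did not use the batch number.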

Additional observations from a re-analysis of the deposited data

Results flagged for a closer look

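In each tissue and season the highest or lowest of the 7 libraries was checked for a gap to the others that is large against the whole range, for the 9 lead names. The gap was not taken on scaled CPM as printed below, so those values cannot be used to redo the check. miR-153a in muscle of winter fish 7, at 46.3 scaled CPM with the next at 15.9, was not flagged. Of 54 groups checked, 6 stood out this way, and chance gives about 1 in 20. 3 of the 6 lie in gills of summer fish 4, the shallowest library of the study. There miR-132d was at 0 scaled CPM, with the other 6 fish at 2.13 to 4.19, miR-153a was at 0, with the others at 0.426 to 0.800, and miR-212-5p was at 1.82, from 2 reads, with the others at 0.470 to 0.841. In gills of winter fish 2, the next shallowest library, miR-218a was at 25.0 scaled CPM from 104 reads, with the others at 44.7 to 62.5. In gills of winter fish 4, miR-153a was at 3.74 scaled CPM from 42 reads, with the others at 0.743 to 1.01. In muscle of winter fish 3, miR-218a was at 27.2 scaled CPM, with the others at 61.6 to 108. Without both shallow gill libraries the counts of called members were the same in each tissue and seasonal comparison, except 4 in place of 3 lower for muscle minus skin (miR-128-1-5p gained the call, at -1.02).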

How the results depend on the processing

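Scaling by totals alone moved the counts of called members to 9 higher and 18 lower for skin minus gills, 8 and 22 for muscle minus gills and 23 and 13 for muscle minus skin, to 11 for the muscle season and to 3 for the seasonal change of muscle minus skin. It turned the muscle minus gills change of miR-124-3p (-1.93), miR-128 (-2.61), miR-132d (-2.46), miR-137 (-1.66), miR-138-5p (-0.86), miR-212-5p (-0.32), miR-212b-3p (-1.11) and miR-218a (-2.58), and the muscle minus skin change of miR-128 (-1.54), miR-138-5p (-1.34) and miR-218a (-0.54). Totals without miR-10 names left all 30 such values within 0.176 of the TMM values. That scaling and TMM without miR-10 names each gave 1 in place of 2 members lower in muscle than in gills. In the muscle season totals without miR-10 names called 13 members and DESeq2 called 2. Summing all entries of a name turned the skin minus gills ratio of miR-137 to miR-124-3p to 0.89. What caused these changes was not tested. Of 774 single values compared, 701 kept their direction and their side of the threshold, 5 lost a call, 18 gained one, 12 turned and 38 uncalled values changed sign. With the fish as a replicate block, the paired fit gave 41 and 2 members for muscle minus gills, 41 and 3 for muscle minus skin and 14 and 8 for skin minus gills, and it changed no other call. With the batch number as a block, 0 members were called by season in each tissue. No share of all names is at hand for the block fits, so these counts cannot be read as a result about the members. Low read numbers limit miR-219 in gills, miR-124 and miR-137 in skin, and the 15 names with reads that were not tested.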
